A study of Nothobranchius furzeri with 20 samples.

Results

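The 200 genes described here were the expressed genes of killifish skin that varied most between fish of the same set. They were picked for that spread, so the spread itself is a description and not a result. Each count was divided by its library's total and multiplied by 1000000 (CPM) and put on the log2(CPM + 0.5) scale. Of 26739 genes in the table, 11817 had a median of at least 5 CPM over the 20 libraries and a mean under 1000 CPM. Of these, 4278 (36.2%) had ranges that overlapped in every pair of 4 sets of 5 fish. The 200 members were those of the 4278 with the largest SD inside the sets, pooled over the sets. This also means that no member can separate any 2 sets completely.

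The fish were males of the killifish Nothobranchius furzeri, whose wild populations live for a single rainy season, and all groups share the strain MZM-04/10p, the sex and the tissue. The 27-week fish, exercised in a swim tunnel, number 10, and their titles form a first run (replicates 1 to 5) and a second run (replicates 6 to 10) under 1 label. There were 5 exercised fish of 9 weeks and 5 unexercised fish of 9 weeks. The 2 title runs and the 2 groups of 9 weeks are the 4 sets. In such a tunnel fish swim against moving water. No sample is labelled as unexercised at 27 weeks. Each library is taken as 1 fish. The labels do not state separate animals, so the p-values cover only the spread among these libraries, which may be technical.

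Fish skin is a layered tissue of living epidermis with mucus cells, a dermis with scales and pigment cells, and vessels and nerves. A piece of it also carries immune cells, and muscle lies directly beneath. Genes that go up and down together across animals are called co-expressed, and a level measured in a whole piece of skin sums over all its cells. In such bulk samples, fewer cells of a type and less RNA per cell cannot be told apart. The files give gene identifiers with no names, and 0 of the 26739 were found in the gene table used here, so no member is given a function. For the same reason the labelled tissue was not checked against skin markers.

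Libraries held 20597690 to 38619614 counted reads, and 15910 to 17408 genes reached 1 CPM. The 10 most abundant genes took 13.5% to 21.3% of the counts. The lowest median count of a member was 156.5 reads, and the median over the members was 460 reads. Counting error alone would give a member a median SD of 0.0747 on the log2 scale of the counts, with no constant added. The largest such value was 0.836. The members' SD, which chose them, was a median of 13.7 times this counting error and at least 2.57 times. That SD was taken with a constant added to CPM, which lowers the counting error of libraries with few reads. On its scale 0.836 is therefore an upper limit and 2.57 a lower limit.

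The SD that chose the members was 3.53 for the most variable gene and 0.821 for the last one taken, on the log2(CPM + 0.5) scale. Its median was 0.991 in the members, against 0.314 in the 4078 genes that met every other criterion, called the other kept genes below. An SD of at least 1 was found for 95 members and of at least 2 for 10. Just inside the limit, Nfu_g_1_019621 had 0.822 and Nfu_g_1_019273 had 0.821. Just outside it, Nfu_g_1_006397 had 0.821 and Nfu_g_1_009685 had 0.819, so the limit falls in a continuous series of values.

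The rule left out rare and very abundant transcripts, and within its limits the members covered a wide range of levels. Scaled by gene length, their mean level ran from 0.696 to 395 CPM per kb with a median of 10.4, against a median of 7.07 CPM per kb in the other kept genes. The gene length behind the deposited RPKM values was a median of 2.78 kb in the members and 3.35 kb in the other kept genes. In sum the 200 genes made up 7512 to 21430 CPM of a library.

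The spread was large in every set. The median SD of a member was 0.997 in replicates 1 to 5 of 27 weeks, 0.858 in replicates 6 to 10, 1.08 in exercised fish of 9 weeks and 0.914 in unexercised fish of 9 weeks. The widest set was replicates 1 to 5 of 27 weeks for 57 members, replicates 6 to 10 for 30, the exercised 9-week fish for 59 and the unexercised 9-week fish for 54. In the other kept genes the same shares were 36.5%, 30.5%, 18.2% and 14.8%, so the widest set was more often an old one there. Members had it in an old set in 28.5% and 15% of cases and in a young one in 29.5% and 27%. The choice of members by pooled SD bears on these shares, and they were not tested.

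A few fish were most often the farthest from their set. For each member the fish farthest from the mean of its set was noted, and 8 of the 20 fish were the farthest for 162 of the 200 members. They were the exercised 9-week replicates 1 (30 members), 5 (21) and 4 (18), the 27-week replicates 4 and 7 (25 each) and 2 (10), and the unexercised 9-week replicates 5 (17) and 3 (16). In the other kept genes the exercised 9-week replicates 1, 5 and 4 were the farthest for 5.49%, 6.99% and 3.24%. The 27-week replicates 4, 7 and 2 were so for 17.5%, 20.7% and 3.43%, and the unexercised 9-week replicates 5 and 3 for 3.31% and 5.93%. Replicates 4 and 7 of 27 weeks were thus often the farthest there as well. Replicate 1 of the exercised 9-week fish held 11.7% of the members' squared deviations and replicate 7 of 27 weeks held 9.59%, where an equal share would be 5%. In the other kept genes the same fish held 6.19% and 10.97%. The farthest fish lay above its set in 73 members (36.5%) and below it in the rest, against 40.2% above in the other kept genes.

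Most members did not rest on 1 fish alone. The share of a member's squared deviation that lay in a single fish was a median of 26.2%, against 23.5% in the other kept genes. It was over 50% for 14 members (7%), against 1.79% of the other kept genes. That fish was the 27-week replicate 2 for 5 members and replicate 7 for 1, the exercised 9-week replicate 1 for 2 and the unexercised 9-week replicate 3 for 6. It lay above its set for 11 of the 14.

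**Figure D1:**
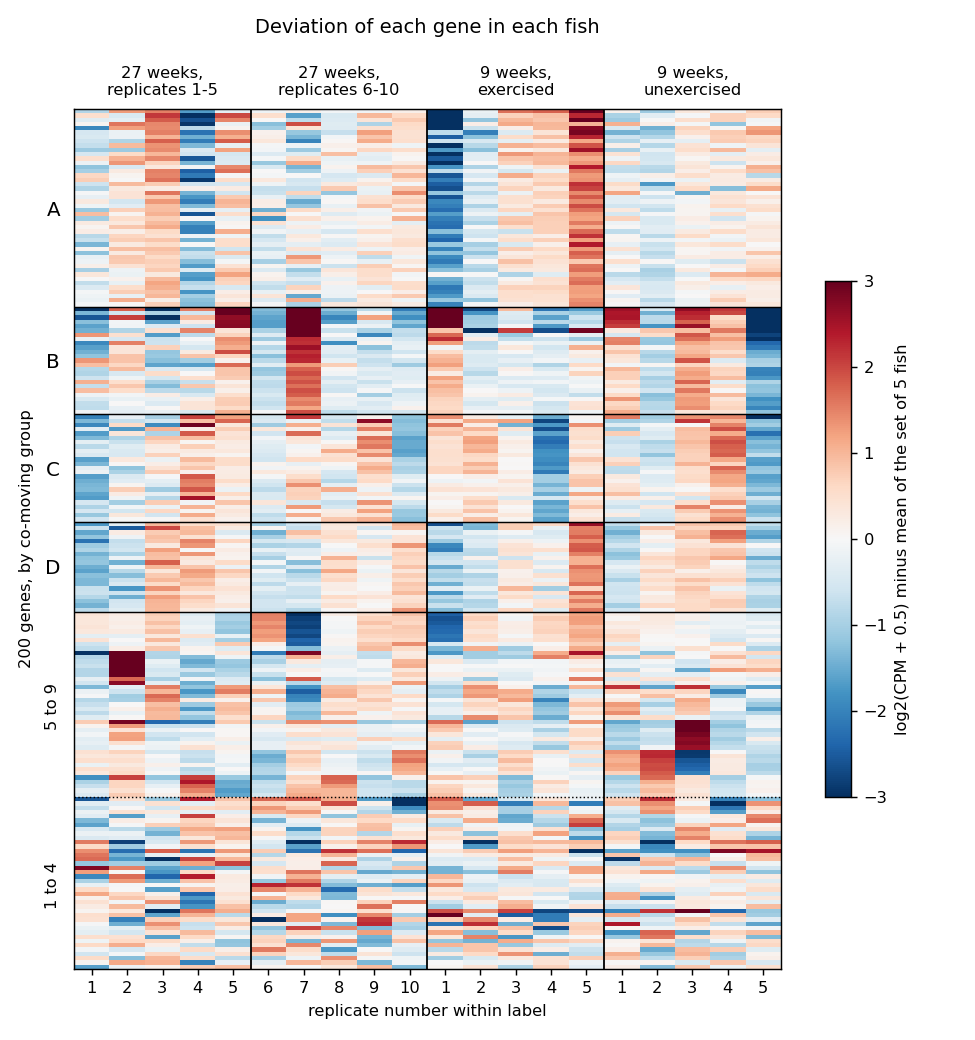
Deviation of each of the 200 genes (rows) in each of the 20 fish (columns) from the mean of its set of 5, in log2(CPM + 0.5) units, with colours ending at -3 and 3. Rows are ordered by co-moving group (A to D, then groups of 5 to 9 and of 1 to 4 genes), and blocks of 1 colour mark fish in which a whole group was high or low.

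To see which genes moved together, the set means were removed and the members were clustered on Pearson's r over the 20 fish, with groups joined down to a mean r of 0.5. This gave 35 groups. Of these, 4 had 10 or more members (46, 25, 25 and 21 genes, called groups A, B, C and D). Over the pairs inside each, the mean r was 0.682, 0.747, 0.706 and 0.787. The lowest r of a pair was -0.103, 0.285, 0.0878 and 0.416, so not all genes of a group moved closely together. Another 43 genes fell into 6 groups of 5 to 9, 26 into groups of 2 to 4, and 14 stayed alone. Over all 19900 pairs of members the median r was 0.0742, and 6.81% of pairs reached 0.7. Among the other kept genes the median r was 0.189 and 4.58% of pairs reached 0.7. These correlations share libraries and depth and are given as descriptions.

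Group A, of 46 genes, was a gradient that ran furthest in the exercised 9-week fish. The mean deviation of its members from their set was -2.11 log2 units in replicate 1 of these fish and 1.70 in replicate 5. Replicate 1 was the lowest of its set for 43 of the 46 genes, and replicate 5 was the highest for 44. In sum the group made up 991 CPM in replicate 1 and 12750 CPM in replicate 5, a 12.9-fold difference between 2 fish of 1 label. In the 27-week fish, replicate 4 was the lowest of its set for 35 genes and replicate 3 the highest for 29. Replicates 6 to 10 of 27 weeks and the unexercised 9-week fish differed less, with highest sums 1.49 and 1.85 times the lowest. The mean deviation rose with the replicate number in the exercised 9-week fish and in replicates 6 to 10 of 27 weeks. It rose from replicate 2 on in the unexercised 9-week fish, but did not follow the number in replicates 1 to 5 of 27 weeks. Replicates are numbered in sample order, and whether that order bears on group A was not tested.

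The gene closest to the mean of the other members of group A was Nfu_g_1_001454 (r = 0.977). Its levels were 203, 320.1, 414, 71.6 and 412 CPM in replicates 1 to 5 of 27 weeks and 319.5, 221, 359, 514 and 551 CPM in replicates 6 to 10. They were 32.9, 152, 277, 318 and 709 CPM in the exercised and 241, 194, 312, 411 and 396 CPM in the unexercised 9-week fish. The ranges overlap, and the extremes of all 20 libraries, 32.9 and 709 CPM, were both exercised young fish. The second closest, Nfu_g_1_000759 (r = 0.953), ran from 105 to 1018 CPM with the same pair of fish at its ends. Nfu_g_1_020234, named after its values were seen, had 4.66 CPM in replicate 4 of 27 weeks and 8.36 CPM in replicate 1 of the exercised 9-week fish. In the other 18 fish it had at least 67.6 CPM, a gap of 2.94 log2 units.

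Some genes outside the 200 moved with group A. Among the 4078 other kept genes, 164 (4.02%) had r of at least 0.7 with its mean, and 6 had r of -0.7 or less. Those closest to it were Nfu_g_1_007578 (r = 0.947) and Nfu_g_1_006170 (r = 0.929). In the exercised 9-week fish, Nfu_g_1_007578 was at 32.5 CPM in replicate 1 and at 286 CPM in replicate 5. A further 192 (2.55%) of the 7539 expressed genes whose sets did not all overlap reached 0.7 as well. Of pairs of single genes among the other kept genes, 4.58% reached 0.7. Nothing is therefore read from such shares, here or for the groups below. Of the genes over the limit of 1000 CPM, 0 reached r of 0.7 with the mean of group A and 1 reached -0.7. The count of group A genes staying together depended on few fish. Without replicate 4 of 27 weeks at most 18 of its 46 genes stayed in 1 group. Without replicates 1 or 5 of the exercised 9-week fish it was at most 19 or 28. With a library left out, or another pseudocount or scaling, the 200 were chosen anew, here and for the groups below. A gene no longer chosen therefore counts as not staying, even if it still moved with the group. Among the same 200 genes, 25 of the 46 stayed with the tree cut at 0.4 in place of 0.5, and 24 with Spearman's rho.

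Group B, of 25 genes, was high in some fish of every set. In sum its genes made up over 1000 CPM in 6 of the 20 fish, with 1166 to 4117 CPM, and 204 to 612 CPM in the other 14. The sum weighs abundant genes most, and not all of the 14 were low against their set. The mean deviation was 0.32 log2 units in replicate 2 and -0.03 in replicate 4 of 27 weeks. It was -0.05 in replicate 5 of the exercised 9-week fish. The 6 fish came from all 4 sets. They were replicate 5 (1166 CPM) and replicate 7 (2584 CPM) of 27 weeks, replicate 1 of the exercised 9-week fish (1315 CPM) and replicates 1, 3 and 4 of the unexercised 9-week fish (3638, 4117 and 2429 CPM). Replicate 7 was the highest of its set for 25 of the 25 genes, and replicate 1 of the exercised 9-week fish for 22. Replicate 5 of the unexercised 9-week fish was the lowest of its set for all 25, with a mean deviation of -2.41 log2 units.

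The 4 most variable of all members belong to group B. Nfu_g_1_019860 had 0.388, 37.2, 0.257, 31.1 and 190.2 CPM in replicates 1 to 5 of 27 weeks and 4.05, 455, 4.51, 5.91 and 2.14 CPM in replicates 6 to 10. It had 234, 0.228, 8.69, 0.553 and 0.984 CPM in the exercised and 557, 68.7, 606, 419 and 0.328 CPM in the unexercised 9-week fish. The same gene was thus under 1 CPM in 6 fish and over 100 CPM in 6 others, and each of the 4 sets held at least 1 fish over 100 CPM. Its SD was 3.53 log2 units.

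Nfu_g_1_022520 (SD 2.59) split the fish into 10 and 10. It had 0.208 to 1.36 CPM in 10 of them and 12.3 to 175 CPM in the other 10, with no value between. By set it had 0.971, 36.4, 0.486, 16.6 and 54.8 CPM in replicates 1 to 5 of 27 weeks and 1.36, 99.95, 0.917, 12.3 and 1.05 CPM in replicates 6 to 10. In the exercised 9-week fish it had 28.1, 0.522, 1.09, 0.208 and 0.908 CPM, and in the unexercised ones 175, 18.2, 147, 47.1 and 0.954 CPM. Old fish were on both sides, 5 above the gap and 5 below it, whereas the exercised young fish had 1 above and the unexercised young fish 4 of 5.

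Nfu_g_1_006412 (SD 2.63) had 63.2 to 924 CPM in 7 fish and 3.33 to 14.2 CPM in the other 13. The 7 were replicates 5 and 7 of 27 weeks, replicate 1 of the exercised 9-week fish and replicates 1 to 4 of the unexercised 9-week fish. Closest to the mean of the group were Nfu_g_1_002988 (r = 0.967) and Nfu_g_1_007228 (r = 0.958). Nfu_g_1_002988 ran from 3.19 to 370.3 CPM and was highest in replicate 7 of 27 weeks. Nfu_g_1_007228 spanned a narrower range, 7.37 to 67.7 CPM, with the 6 highest libraries the same 6 fish that had group B over 1000 CPM. The last member taken, Nfu_g_1_019273, also belongs to this group.

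Replicate 7 of 27 weeks weighed most on group B. Without that library at most 10 of its 25 genes stayed in 1 group, and at least 17 stayed without any other single library. Among the other kept genes, 97 (2.38%) had r of at least 0.7 with the mean of group B and 6 had r of -0.7 or less. Of the genes over 1000 CPM, 0 did in either direction.

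**Figure D2:**
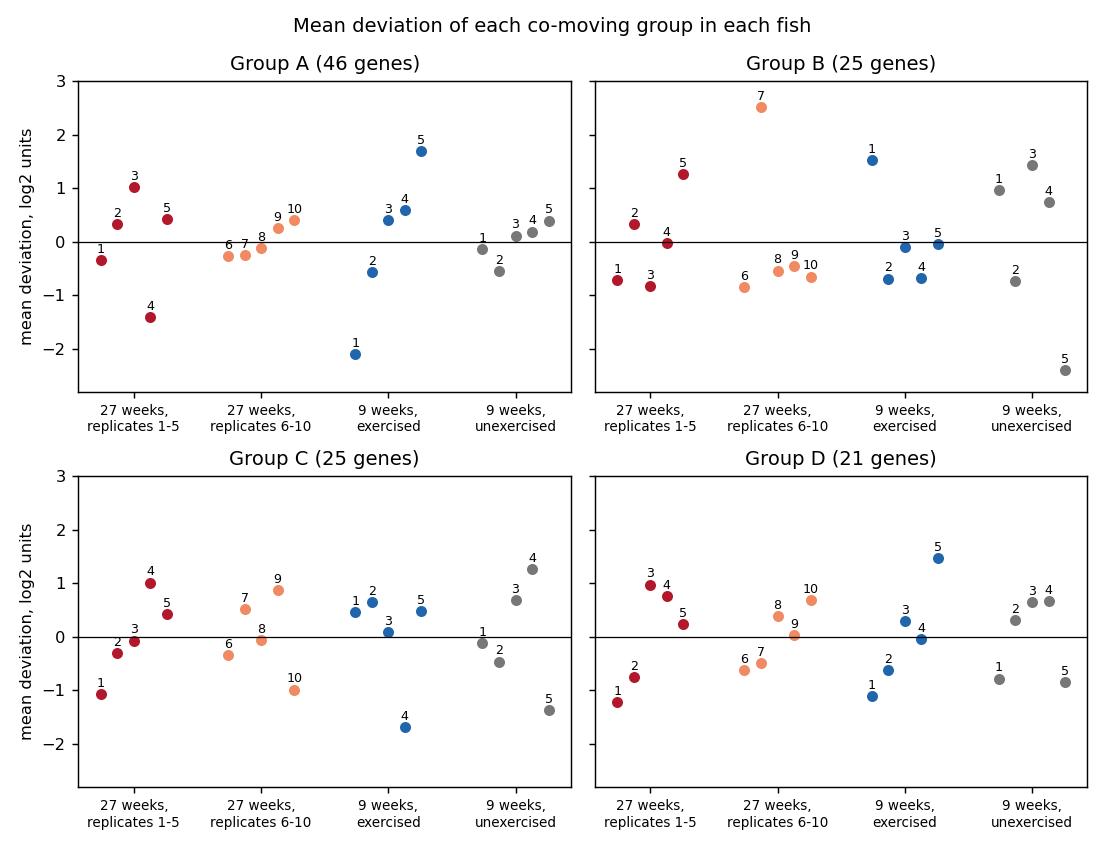
Mean deviation of groups A to D from the mean of the set of 5 fish, in log2 units, 1 point per fish with its replicate number. Group A runs from -2.11 to 1.70 in the exercised 9-week fish, and group B stands out in replicate 7 of 27 weeks at 2.51 and in replicate 5 of the unexercised 9-week fish at -2.41.

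Group C, of 25 genes, had both low and high fish in 3 of the sets, and 1 low fish in the exercised 9-week set. Replicate 4 of the exercised 9-week fish was the lowest of its set for all 25 genes, with a mean deviation of -1.68 log2 units. Replicate 5 of the unexercised 9-week fish was the lowest for 23, replicate 10 of 27 weeks for 20 and replicate 1 of 27 weeks for 17. At the other end, replicate 4 of the unexercised 9-week fish was the highest for 20 (mean deviation 1.27, against -1.38 in replicate 5). Replicate 4 of 27 weeks was the highest for 17 (1.01, against -1.07 in replicate 1) and replicate 9 for 12 (0.87, against -0.99 in replicate 10). The gene Nfu_g_1_014120 (r = 0.937 with the others) had 1.02, 1.51, 6.49, 6.58 and 4.83 CPM in replicates 1 to 5 of 27 weeks and 6.24, 8.97, 4.84, 22.2 and 1.82 CPM in replicates 6 to 10. It had 11.8, 20.9, 9.64, 1.49 and 13.4 CPM in the exercised and 1.67, 2.10, 5.44, 10.5 and 0.596 CPM in the unexercised 9-week fish. Low fish were present in all 4 sets. Nfu_g_1_008351 (r = 0.937) ran from 1.55 to 37.3 CPM, with replicate 5 of the unexercised 9-week fish lowest and replicate 9 of 27 weeks highest.

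Group C held together least when libraries were left out, in counts that again take a gene no longer chosen as not staying. Leaving out any 1 of 9 libraries left between 7 and 13 of its 25 genes in 1 group. The lowest number was without replicate 4 of the exercised 9-week fish (7). The others were replicates 2 (12) and 3 (13) of those fish, replicates 2 (13), 3 (12) and 4 (11) of the unexercised 9-week fish and replicates 4 (12), 8 (12) and 9 (10) of 27 weeks. With a pseudocount of 0.1 or 2 in place of 0.5, 13 or 12 stayed together, and 13 did with TMM or DESeq2 scaling, with Spearman's rho or with the tree cut at 0.4. The means of groups B and C had an r of 0.575.

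Group D, of 21 genes, had replicate 5 of the exercised 9-week fish at its top, as group A did. That fish was the highest of its set for 20 of the 21 genes and replicate 1 was the lowest for 16. In replicates 1 to 5 of 27 weeks, replicate 1 was the lowest for 16 genes and replicate 3 the highest for 14 (mean deviation 0.98). In replicates 6 to 10, replicate 6 was the lowest for 11 and replicate 10 the highest for 15 (0.68). The gene Nfu_g_1_018450 (r = 0.972) had 5.39, 8.71, 27.2, 20.8 and 14.8 CPM in replicates 1 to 5 of 27 weeks and 8.10, 10.4, 14.8, 13.3 and 17.5 CPM in replicates 6 to 10. It had 10.1, 11.8, 25.5, 30.5 and 66.9 CPM in the exercised and 12.9, 24.0, 29.3, 33.6 and 9.75 CPM in the unexercised 9-week fish. The highest library held 66.9 CPM and the lowest 5.39 CPM, 12.4-fold apart. Nfu_g_1_004284 (r = 0.968) ran from 2.86 to 30.2 CPM, and its ends were the same 2 fish.

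Although groups A and D shared their highest young fish, they parted in others. Replicate 4 of 27 weeks had a mean deviation of -1.42 log2 units in group A and 0.76 in group D. Replicate 5 of the unexercised 9-week fish had 0.39 in group A and -0.85 in group D. The r between the 2 means was 0.495. Group D had the most followers among the other kept genes, 264 of 4078 (6.47%) with r of at least 0.7. Without replicate 3 of 27 weeks at most 13 of its 21 genes were chosen again and stayed in 1 group, and at least 15 were without any other single library.

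The smaller groups were marked by 1 fish or a few. A group of 8 genes averaged 3.05 log2 units above its set in replicate 2 of 27 weeks, the highest of its set for all 8. A group of 7 genes averaged 3.00 units above its set in replicate 3 of the unexercised 9-week fish, where all 7 were highest. A group of 6 genes had a mean r of 0.945. In the unexercised 9-week fish its mean deviation was 2.05 in replicate 2 and -2.53 in replicate 3. In the 27-week fish, all 6 were highest in replicate 10 and lowest in replicate 6 of replicates 6 to 10.

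A group of 9 genes went against group B, with an r of -0.641 between the means. All 9 were the lowest of their set in replicate 7 of 27 weeks (mean deviation -2.55) and in replicate 1 of the exercised 9-week fish (-2.06). The unexercised 9-week fish did not all oppose. Their replicate 5 was low in both (-2.41 in group B, -0.33 here, lowest for 6 of the 9). Their replicate 1 was high in both (0.97 and 0.29), replicate 3 was at 1.43 and 0.06, and replicates 2 and 4 had opposite signs. Nfu_g_1_004233 had 1.35 CPM in replicate 7 against 11.9 to 34.7 CPM in the other fish of its set. Nfu_g_1_004234 had 1.46 CPM in that fish, against 19.1 to 48.0 CPM in the others of its set. Nfu_g_1_002243 had 0.508 CPM in replicate 7 of 27 weeks and 1.54 CPM in replicate 1 of the exercised 9-week fish, against a median of 9.89 CPM over all 20 libraries.

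A second group of 8 genes was lowest in replicate 7 of 27 weeks and in replicate 4 of the exercised 9-week fish, for all 8 genes in both. A group of 5 genes was highest in replicate 4 of 27 weeks (mean deviation 1.76) and low in replicate 5 (-1.46). Its member Nfu_g_1_016625 had 268, 454, 321, 914 and 102 CPM in replicates 1 to 5 of 27 weeks and 105, 348, 349, 115 and 112 CPM in replicates 6 to 10. In the exercised 9-week fish it had 779, 494, 234, 599.9 and 395 CPM, and in the unexercised ones 226, 759.6, 483, 267 and 432 CPM. Replicates 6, 9 and 10 of 27 weeks and replicate 5 of that age had 102 to 115 CPM, below every young fish.

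Outside the 4 large groups, too, a few members were present or nearly absent by fish. Nfu_g_1_005594 had 6.94, 6.92, 12.3, 7.07 and 12.8 CPM in replicates 1 to 5 of 27 weeks and 7.31, 6.57, 18.7, 5.03 and 0 CPM in replicates 6 to 10. It had 5.40, 7.501, 0.0272, 3.98 and 0.0379 CPM in the exercised and 10.1, 14.7, 5.05, 0 and 14.2 CPM in the unexercised 9-week fish. Thus 4 fish, 1 old and 3 young, had 0 or 1 counted read, and the other 16 had at least 115 reads. A count of 0 can arise where up to about 3 reads were expected, so it does not show that a transcript was absent.

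Nfu_g_1_012123, named after its values were seen, divided the fish in another way. It had 5.87, 0, 7.97, 0.0259 and 5.53 CPM in replicates 1 to 5 of 27 weeks and 4.24, 0.102, 12.1, 8.23 and 0.0404 CPM in replicates 6 to 10. In the exercised 9-week fish it had 6.94, 9.26, 13.2, 11.1 and 0.0379 CPM, and in the unexercised ones 0.0896, 0, 0, 12.0 and 9.39 CPM. Here 8 fish had 0 to 3 reads and the other 12 had at least 4.24 CPM. The nearly absent fish were 4 of 10 old, 1 of 5 exercised young and 3 of 5 unexercised young fish. Nfu_g_1_020701, also named after its values were seen, had 0.450 to 0.929 CPM in 4 fish and 6.03 to 17.9 CPM in the other 16.

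In all, 6 of the 200 members (3%) had a gap of at least 2 log2 units between the fish, with at least 2 fish on each side. None of the 4078 other kept genes had one (0%). The large spread that chose the members favours such gaps. The 6 are Nfu_g_1_006412 and Nfu_g_1_022520 of group B, Nfu_g_1_020234 of group A, and Nfu_g_1_005594, Nfu_g_1_012123 and Nfu_g_1_020701 outside the 4 groups. A library with 3 or fewer reads was found for 6 members. Among them was Nfu_g_1_009595 of group B, named after its values were seen. It had so few reads in 3 fish and up to 39.2 CPM in others.

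**Figure D3:**
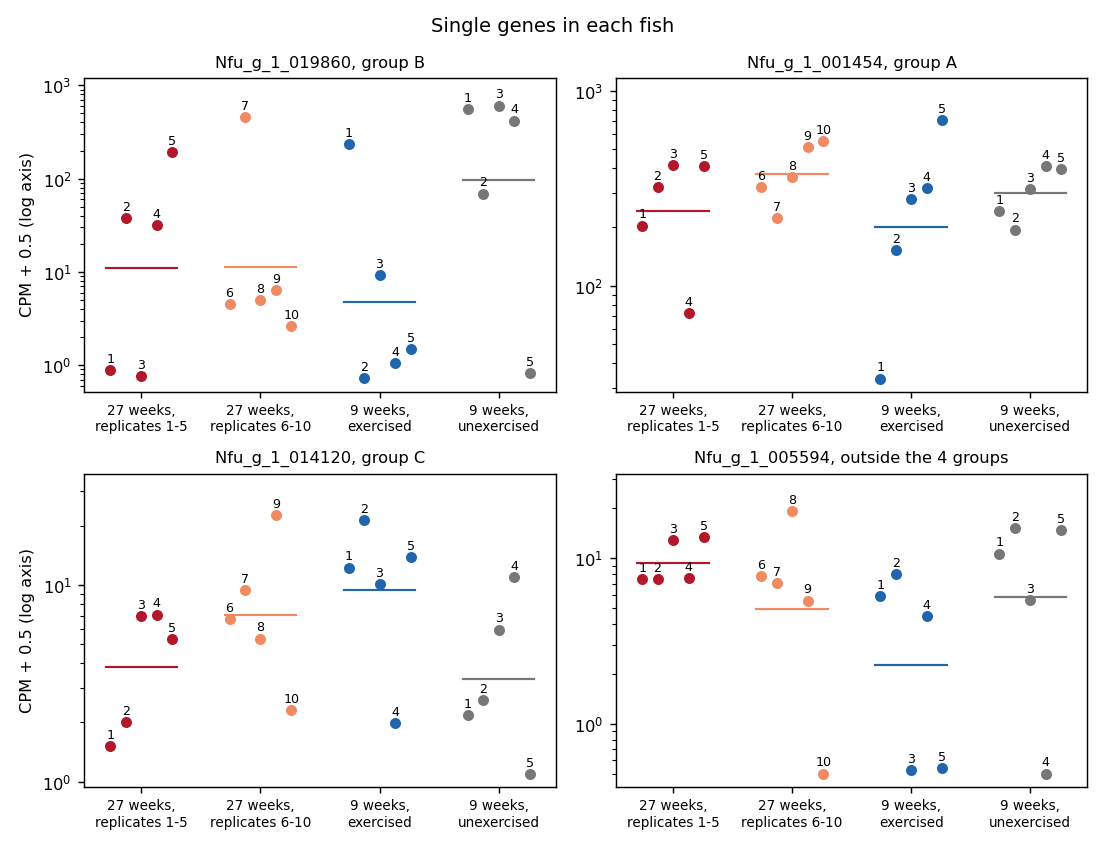
Level of 4 members in each fish, as CPM + 0.5 on a log axis, 1 point per fish with its replicate number; lines are means on the log scale. Nfu_g_1_019860 spans 0.228 to 606 CPM with high and low fish in every set, and Nfu_g_1_005594 is at 0 to 0.0378 CPM in 4 fish and at least 3.98 CPM in the other 16.

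The choice did not use the position of genes in the deposited table. But r was taken on the same values whose SD chose the members, so neighbours that move together tend to be chosen together. Counting error also lowers r less in genes with a large SD. Nothing is therefore read from the differences to the other kept genes below. Of the 200 members, 14 pairs stood in neighbouring rows, and 11 of these pairs had r of at least 0.7 (median r 0.954). Of 816 other neighbouring pairs of kept genes, 147 (18.01%) reached 0.7, with a median of 0.323. Apart from the row order, 7 pairs of members have consecutive identifier numbers, and 3 of these reached r of 0.7 (median 0.575). Among 805 other consecutively numbered pairs of kept genes 6.21% did. The highest r of the 7 were 0.993 for Nfu_g_1_004233 and Nfu_g_1_004234 and 0.973 for Nfu_g_1_016624 and Nfu_g_1_016625, which stand 3 and 2 rows apart. The lowest was -0.645, for Nfu_g_1_002243 and Nfu_g_1_002244. These also stand in neighbouring rows, and Nfu_g_1_002244 is a member of group B. What the row order stands for, and whether neighbours overlap and share reads, the sources used here do not say.

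Summed up over all members, the fish could be placed on axes. The first principal axis of the deviations held 30.8% of the members' variance and the second 17.1%. Replicates 1 of the exercised 9-week fish and 7 of 27 weeks lay at the high end of axis 1, at 19.4 and 16.1. The low end was replicate 5 of the unexercised 9-week fish at -13.4 and replicate 3 of 27 weeks at -10.5. The ends of axis 2 were again fish of different sets, with replicate 5 of the exercised 9-week fish at 13.5 and replicate 1 of 27 weeks at -9.23.

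Axis 1 set group B against group A, whose means had r of 0.860 and -0.685 with it. Nfu_g_1_019860 and Nfu_g_1_022520 had the highest r with axis 1, 0.910 and 0.893. Nfu_g_1_002243 and Nfu_g_1_005475, a member of group A, had the lowest, -0.829 and -0.823. In all, 20 members had r of at least 0.7 with axis 1 and 14 had r of -0.7 or less.

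Axis 2 ran with groups A and D, whose means had r of 0.669 and 0.715 with it. Nfu_g_1_002685 of group A and Nfu_g_1_018321 of group D had the highest r with it, 0.804 and 0.803. In the exercised 9-week fish, Nfu_g_1_018321 was at 2.71 CPM in replicate 1 and at 122.2 CPM in replicate 5. The lowest were Nfu_g_1_005594 (-0.537) and Nfu_g_1_010210 (-0.516), and no member of 200 reached -0.7 while 13 reached 0.7. Nfu_g_1_010210 had 194, 275, 148, 77.3 and 57.4 CPM in replicates 1 to 5 of 27 weeks and 228, 458, 133.9, 66.3 and 140.6 CPM in replicates 6 to 10. It had 235, 204, 51.9, 87.4 and 91.7 CPM in the exercised and 78.0, 149.8, 44.1, 41.8 and 117.9 CPM in the unexercised 9-week fish.

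**Figure D4:**
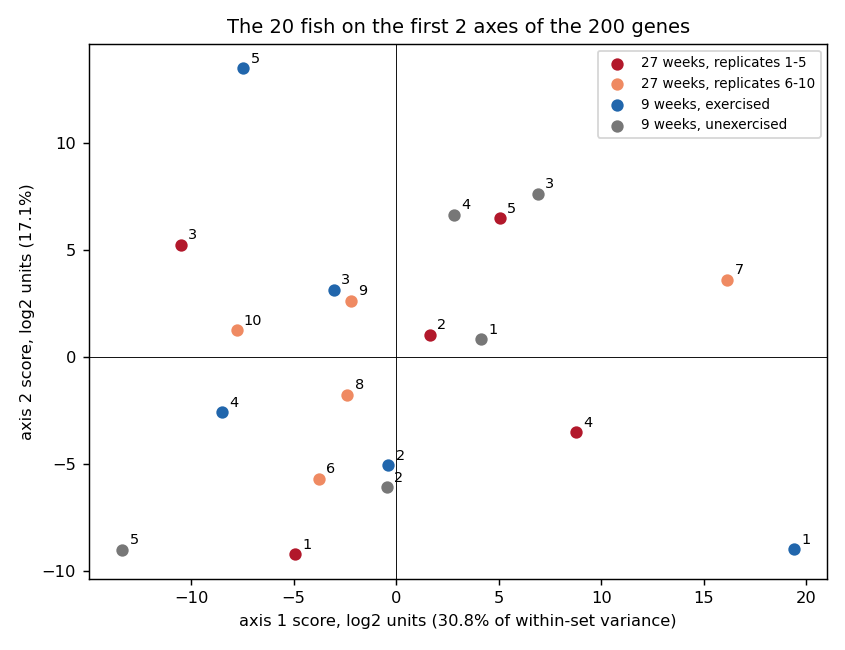
The 20 fish by their scores on axis 1 (x) and axis 2 (y) of the 200 genes, in log2 units, coloured by set and labelled with the replicate number. Replicates 1 of the exercised 9-week fish (19.4) and 7 of 27 weeks (16.1) lie farthest to the right. The means of the 4 sets were removed beforehand, so no set could stand apart as a whole.

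The same fish resembled each other across sets. Over the 200 members, the deviations of replicate 1 of the exercised 9-week fish and replicate 7 of 27 weeks had r = 0.577, the highest of all pairs from different sets. In the other kept genes, which the choice left out, this pair had r = 0.457. Replicate 1 of the exercised 9-week fish and replicate 3 of 27 weeks were the most unlike over the members, with r = -0.664, and had -0.381 over the other kept genes. Neither pair was the extreme there. In those genes replicates 5 and 9 of 27 weeks had the highest r, 0.527. Replicate 3 of the exercised 9-week fish and replicate 7 of 27 weeks had the lowest, -0.473. All these values are taken across genes, and genes do not count as replicates. The first axis of the other kept genes held 31.1% of their variance. Its r with the members' axis 1 was -0.466, and with axis 2 it was 0.645. The second axis of the other kept genes had r = 0.5996 with the members' axis 1. The order of all fish along the first axis thus differed, but its high end was shared. On the first axis of the other kept genes, replicate 7 of 27 weeks (-25.33) and replicate 1 of the exercised 9-week fish (-18.53) were the lowest. The fish at the low end of the members' axis 1 were not both at the opposite end there. Replicate 5 of the unexercised 9-week fish was at -4.17 and replicate 3 of 27 weeks at 8.813.

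Both fish at the high end of axis 1 also had the largest shares of counts in the 10 most abundant genes, 21.1% in replicate 7 of 27 weeks and 21.3% in replicate 1 of the exercised 9-week fish. In the other 18 libraries this share was 13.5% to 18.9%. Their TMM scaling factors, which correct for such shares, were 0.849 and 0.910. Both lay toward the low end of the range of 0.841 to 1.23 over all libraries (median 0.992), and 0.910 was the lowest of the exercised 9-week fish. With CPM on TMM-scaled totals, 185 of the 200 members were chosen again. All 25 genes of group B then stayed together, as did 40 of 46 in group A, 13 of 25 in group C and 14 of 21 in group D. The part of the abundant genes in the pattern was not tested.

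Membership depended moderately on single fish. Leaving out 1 library at a time, 164 to 192 of the 200 genes were chosen again, fewest without replicate 1 of the exercised 9-week fish. Without that fish and replicate 7 of 27 weeks together, a choice made after the data were seen, 146 were. In that selection at most 22 genes of group A, 10 of group B, 24 of group C and 17 of group D stayed together.

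The members were also looked up in the comparisons between the labelled groups, tested in edgeR's quasi-likelihood test over all genes with Benjamini-Hochberg adjustment. Because the rule demanded overlapping sets, a low count of members is built in and nothing is read from it. Between 27-week and 9-week exercised fish 9 of 200 members had an adjusted p under 0.05, 4 higher and 5 lower in the older fish. This test took all 27-week fish as 1 group, with no term for the title run. Of all genes tested, 24.5% were called (13.2% higher and 11.3% lower), 4609 genes. That number was 2467 to 5333 with 1 library left out, and it was lowest without exercised 9-week replicate 3 (2813), 4 (2467) or 5 (2747). Leaving out 27-week replicate 2 or 5 gave 5 or 4 members, and leaving out exercised 9-week replicate 1, 3 or 4 gave 16, 2 or 2. Over the members the median log2 fold change was -0.17, against 0.03 over all genes tested.

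Between replicates 1 to 5 and replicates 6 to 10 of 27 weeks, 16 of 200 members were called, 1 higher and 15 lower in replicates 1 to 5. The share of all genes called was 41.6% (21.2% higher and 20.3% lower). Without replicate 7 the count of members was 27, and 7673 of all genes were called, against 7613 with it. The members' median log2 fold change was -0.45, against -0.05 over all genes.

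Exercised and unexercised fish of 9 weeks differed in 0 of 200 members in edgeR's test, against 0.0108% of all genes tested (0.0054% higher and 0.0054% lower in the exercised fish). That share is 2 genes, and with 1 library left out it was 0 to 7 genes. It was 7 without exercised 9-week replicate 1, 1 and 3 without unexercised 9-week replicates 3 and 5, and 0 without any other single library. At an unadjusted p under 0.05 there were 33 members (16.5%), against 14.8% of all genes. Other tests called 7 members (DESeq2, 2.80% of all genes with an adjusted p) and 0 (limma-voom). The members' median size of change between these groups, sign aside, was 0.63 log2 units, against 0.17 over all genes, and large spread was what chose them. Each labelled group of 9 weeks is 1 run of titles, and each age has its own runs, so exercise or age and anything that goes with the titles cannot be told apart.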

How the data were processed

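RNA of killifish skin was sequenced in 20 libraries. As deposited, counts are whole and not normalized. The submitters' processing notes list STAR 2.4.1d, featureCounts 1.4.6-p4 and bcl2fastq 1.8.4. Build, annotation, strand use and multi-mapped reads: not given in the sources used here, so genes that overlap or have close copies may share reads. The deposited RPKM values were used only for gene length: count divided by RPKM was constant to an SD of 0.001 (natural log) in 100% of 10228 genes when the 20 totals were repeated in turn from gene to gene, and in 0% with each library's own total.

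Groups came from the labels and the 4 sets from runs of title numbers. Replicates are numbered in the order of the samples. Counts of fish in 1 set differed by more than sampling noise in all 40 pairs (lowest chi-square per degree of freedom 36.3). No value column was left unused. The members were chosen as the report describes and, like the lists and tests, with earlier results of these data known. Co-moving groups came from average-linkage clustering on 1 minus Pearson's r of set-centred values, cut at 0.5 (SciPy 1.17.1). Axes are unscaled principal components.

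Comparisons used edgeR 4.0.16 (R 4.3.3) on the counts: TMM scaling, its expression filter, robust quasi-likelihood fits and an adjusted p threshold of 0.05, with only the compared fish in each fit. DESeq2 1.42.0, limma-voom (limma 3.58.1), other scalings, filters, pseudocounts, cuts and left-out libraries were alternatives. Both the choice of members and edgeR's test were tested on simulated data. Named genes are the 2 with the largest SD, the 2 closest to each group and to either end of each axis, the 2 non-members closest to group A, those next to the limit of the choice, and the 2 consecutively numbered pairs with the highest r. Exceptions are stated.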

Additional observations from a re-analysis of the deposited data

Results flagged for a closer look

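A value was marked where the highest or lowest fish of a set of 5 stood apart by more than 0.71 of the set's range. Over 33 quantities in 4 sets, 21 values were marked. Chance alone marks about 1 in 20 sets, but most of these genes were chosen for their spread inside the sets and several move together, so nothing is read from the number.

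Replicate 7 of 27 weeks stood apart most often. Its axis 1 score was 16.1 (next fish -2.21) and its mean deviation in group B was 2.51 (next -0.46). On the log2(CPM + 0.5) scale it was highest for Nfu_g_1_019860 (8.83), Nfu_g_1_006412 (8.46), Nfu_g_1_002988 (8.54), Nfu_g_1_007228 (5.27) and Nfu_g_1_019273 (6.04). It was also highest for Nfu_g_1_006397 (3.995), and lowest for Nfu_g_1_004234 (0.97).

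Replicate 1 of the exercised 9-week fish had a group B mean deviation of 1.53 (next -0.05). It was highest for Nfu_g_1_006412 (7.90), Nfu_g_1_022520 (4.84), Nfu_g_1_002988 (6.49) and Nfu_g_1_007228 (5.22), and lowest for Nfu_g_1_002243 (1.03) and Nfu_g_1_004233 (1.96).

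Replicate 5 of 27 weeks was highest for Nfu_g_1_006412 (6.76) and Nfu_g_1_019273 (5.44), and replicate 1 of 27 weeks was lowest for Nfu_g_1_002685 (2.42). Replicate 4 of the exercised 9-week fish was lowest in the mean of group C (-1.68) and for Nfu_g_1_008351 (1.74).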

How the results depend on the processing

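Of the 200 members, 40% were chosen again with a median of at least 1 CPM, 66% with at least 10 CPM, 58.5% with the median absolute deviation and 62% with the 3 labelled groups as sets. Pseudocounts of 0.1 and 2, TMM or DESeq2 scaling and no overlap criterion kept 160 to 188 genes, and leaving out 1 library 82% to 96%. Members in groups of 10 or more numbered 116 to 150 under the other settings and 115 to 156 without 1 library. These were not always the same groups. Of groups A, B, C and D (46, 25, 25 and 21 genes), 19, 13, 5 and 1 stayed together with at least 1 CPM. With at least 10 CPM it was 42, 11, 9 and 15, and with the median absolute deviation 14, 9, 9 and 19. With the 3 labelled groups it was 25, 16, 7 and 8. Genes no longer chosen count as not staying. With r of at least 0.7 in size with axis 1 there were 34 members, 73 and 57 with a median of at least 1 and 10 CPM, and 31 to 41 without 1 library. Members called for age were 14 of 193 in DESeq2, against 29.55% of all genes with an adjusted p. They were 9 in edgeR, against 24.5% of all genes, and 2 to 16 without 1 library. In 1 fit of all libraries they were 14, with the share of all genes not given here. For exercise DESeq2 called 7 of 194 members, against 2.80% of all genes. In edgeR it was 0, against 0.0108%, and 0 to 0 without 1 library. For the title runs DESeq2 called 27 of 187 members, against 41.17% of all genes. In edgeR it was 16, against 41.6%, and 12 to 27 without 1 library. The overlap criterion builds in low counts of members, so nothing is read from them. Of 182 other values, 50 were lower and 4 higher by more than 1.5 times, and the rest stayed within that factor. The causes were not tested. Counting error limits members with few reads in some libraries. Its largest SD was 0.836 on the log2 scale of the counts, an upper limit for the scale with a constant added to CPM. No paired analysis was possible because the labels give no numbers shared between groups.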
